A study of Mus musculus with 12 samples.

Results

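The genes described here are the Wnt ligands, their Frizzled and Ror receptors, the secreted Wnt antagonists and 3 genes at the nuclear end of the pathway, as measured in mouse pancreatic islets. They were taken from the count table by name: every gene whose symbol is Wnt, Fzd, Sfrp or Dkk followed by a number, together with Wif1, Axin2, Lef1, Tcf7l2, Ror1 and Ror2. This gave 44 of the 37991 rows, for 43 symbols, because Fzd10 has 2 overlapping rows. The rows comprised 19 ligands, 11 Frizzled rows, 2 Ror receptors, 9 antagonists and 3 targets or nuclear effectors. No measured value entered the choice by name, but the set of genes was proposed with earlier results of these data known.

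Bulk RNA-seq was performed on islets of Tg7 mice, in which miR-7a2 is overexpressed in β-cells, and of their Wt littermates, all male and on a C57BL/6 background. The 4 groups were Wt and Tg7 at 2 weeks of age (2w), when Tg7 mice are still normoglycaemic, and Wt and Tg7 at 12 weeks (12w), when they are hyperglycaemic. Each group had 3 libraries, each a pool of islets from at least 3 animals, and the 12w Wt libraries carry the replicate numbers 1, 2 and 4. The sources used here do not name the promoter of the transgene, and as they do not say that the pools held different animals, the p values measure the spread between these libraries.

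Wnt proteins are secreted, lipid-modified ligands that bind Frizzled receptors. In the canonical branch, Wnt, Frizzled and the co-receptors Lrp5 or Lrp6 block the destruction of β-catenin, which then acts in the nucleus with TCF/LEF proteins, and Axin2 is a widely used target of this branch. In the other branches, Wnt5a, Wnt5b and Wnt11 signal through Frizzled, Ror1, Ror2 and the planar cell polarity proteins. Sfrp and Wif1 proteins bind Wnts outside the cell, Dkk1 and Dkk2 bind the Lrp co-receptors, and TCF7L2 is a well-known locus of type 2 diabetes risk in humans.

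The libraries held between 11610697 and 17515758 counts. Insulin transcripts made up 10.1 to 15.4% of counts in Wt 2w, 1.84 to 4.09% in Tg7 2w, 14.8 to 30.0% in Wt 12w and 8.08 to 8.24% in Tg7 12w. Wt 12w replicate 4 stood apart from the other Wt 12w libraries: its insulin share was 14.8% against 27.0 and 30.0%, and it had the highest value of its group in 13 of the 24 tested members (54.2%, against 39.1% of all tested genes). The mature miR-7 is too short for this assay, and the miR-7 precursor rows, Mir7-1, Mir7-2 and Mir7b, had 0 to 30 counts per library, so the transgene itself could not be checked.

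The transgene product was matched to the members by sequence, since a miRNA pairs with transcripts mainly through its seed, bases 2 to 8. The mature miR-7a-5p is shown with the seed in capitals (RefSeq, GRCm38.p6, chr7:78888295-78888317, plus strand). It is followed by the stretches of 3′ UTR around matches to that seed in Dkk3, Sfrp5, Fzd5 and Wnt5b, which are only a part of the members with a match. There the capitals mark the letters complementary to the seed, an A directly after them makes an 8-base match, and coordinates are those of mm9.
miR-7a-5p: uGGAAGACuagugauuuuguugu
Dkk3, 8-base match, minus strand, chr7:119260977-119261005: tggtggacactGTCTTCCaccgactgctt
Dkk3, 8-base match, minus strand, chr7:119259633-119259661: ctatgtgctaaGTCTTCCacataagagca
Sfrp5, 8-base match, minus strand, chr19:42272692-42272720: aaggcctccacGTCTTCCagccacgccca
Fzd5, 7-base match, minus strand, chr1:64779346-64779374: tgtttagcatgGTCTTCCcagaatctgct
Wnt5b, 7-base match, minus strand, chr6:119382975-119383003: tggtagcctagGTCTTCCtgaaaatggag

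At least 1 such match lay in an annotated 3′ UTR of 10 of the 43 members (23.3%), against 12.2% of all genes with an annotated 3′ UTR. Among tested genes these shares were 7 of 24 members (29.2%) and 14.4%. The tested members also had longer 3′ UTRs, with a median of 1859 bases for the longest one against 1151 bases over tested genes. Besides the 4 genes shown, Fzd3, Fzd6 (2 matches), Wnt5a, Sfrp2, Wnt2b and Wnt9b had 7-base matches.

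**Figure D1:**
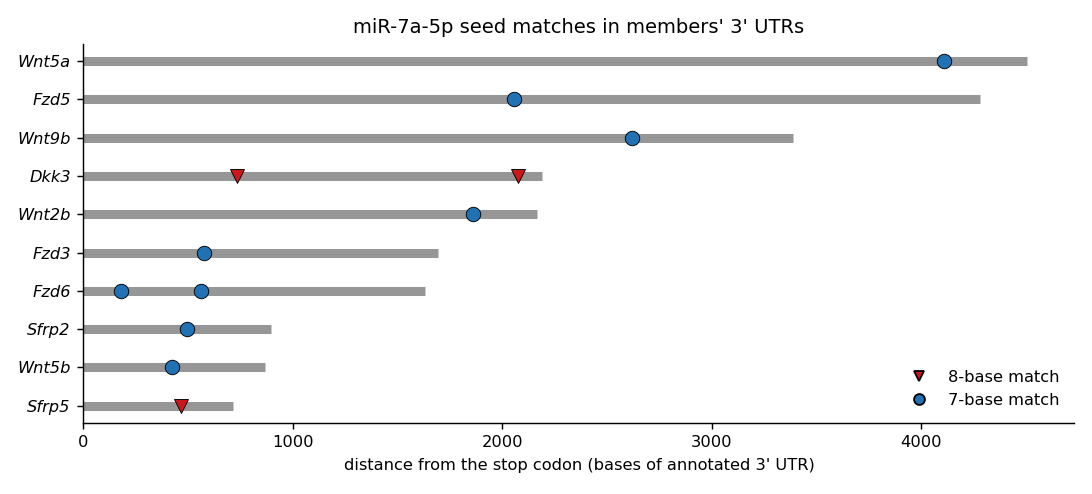
Positions of the miR-7a-5p seed matches in the annotated 3′ UTRs of 10 members. The x axis is the distance from the stop codon in bases, each grey bar is the UTR that holds the match, red triangles are 8-base and blue circles 7-base matches; Dkk3 has 8-base matches 731 and 2075 bases from the stop.

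The level of each member is given as CPM, the read count scaled to the size of the library, scaled with TMM factors, and levels of different genes are compared only as CPM per kb of exon. Of the 44 rows, 24 had enough counts to be tested: 6 ligands, 8 Frizzled genes, both Ror genes, 5 antagonists and the 3 targets or effectors. Of the other 20 rows, 5 had no count in any library (both Fzd10 rows, Wnt3a, Wnt8a and Dkk4), and the remaining 15 had between 1 and 49 counts over all 12 libraries. These 15 were Wnt1, Wnt2, Wnt2b, Wnt3, Wnt6, Wnt7a, Wnt8b, Wnt9b, Wnt10a, Wnt10b, Wnt16, Fzd9, Dkk1, Sfrp2 and Sfrp4. Of the tested genes, Fzd2, Wnt11 and Lef1 passed the filter on low counts through 3 or 4 libraries at 2w and no library at 12w.

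Wnt4 was by far the most abundant ligand per length, with a mean of 32.8 ± 7.22 CPM per kb in Wt 2w and 51.7 ± 7.74 in Wt 12w (SD, n = 3). Of the other ligands, Wnt5b stood at 0.822 ± 0.114 and 0.503 ± 0.204 CPM per kb in the same groups and Wnt9a at 0.461 ± 0.149 and 0.598 ± 0.0466. Among the Frizzled genes no member stood out in this way: in Wt 2w, Fzd6 (6.39 ± 1.08 CPM per kb), Fzd4 (4.2 ± 0.58), Fzd7 (3.57 ± 0.213), Fzd3 (3.41 ± 0.357) and Fzd8 (3.13 ± 0.497) were the most abundant. Fzd1 (1.84 ± 0.0563) and Fzd5 (1.05 ± 0.232) were lower in that group, and Fzd2 was near the limit of detection at 0.0808 ± 0.0807. Ror2 (6.22 ± 0.335 CPM per kb) exceeded Ror1 (0.356 ± 0.11), and Sfrp5 (19.0 ± 1.7) exceeded the other tested antagonists, which lay between 0.575 and 1.01 in Wt 2w.

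The member of each role with the highest mean level per length over all 12 libraries was found in every library, although in Wt 12w Fzd3 (6.06 ± 2.52 CPM per kb) had a higher mean than Fzd6 (4.97 ± 1.49). Wnt4 had 167, 139 and 106 CPM in Wt 2w, 112, 191 and 135 in Tg7 2w, 180, 238 and 234 in Wt 12w and 214, 299 and 251 in Tg7 12w. Fzd6 had 21, 28.5 and 28.8 CPM in Wt 2w, 26.0, 23.1 and 27.2 in Tg7 2w, 17.1, 16.4 and 27.3 in Wt 12w and 24.4, 25.1 and 26.5 in Tg7 12w. For both genes the Wt and Tg7 libraries overlapped at each age. Ror2 had 28.0, 25.4 and 25.7 CPM in Wt 2w, 23.6, 17.9 and 16.9 in Tg7 2w, 13.1, 23.1 and 33.1 in Wt 12w and 32.6, 28.2 and 27.5 in Tg7 12w. The 3 Tg7 libraries lay below all Wt libraries at 2w and within their range at 12w. Sfrp5 had 39.6, 35.0 and 33.4 CPM in Wt 2w, 39.3, 63.7 and 51.1 in Tg7 2w, 27.6, 44.8 and 24.1 in Wt 12w and 28.5, 22.7 and 24 in Tg7 12w. Axin2 had 11, 12.5 and 10.7 CPM in Wt 2w, 18.8, 14.1 and 12.9 in Tg7 2w, 3.91, 7.46 and 11.2 in Wt 12w and 10.9, 11.3 and 10.1 in Tg7 12w. The Sfrp5 groups overlapped at both ages, while Axin2 was higher in every Tg7 library at 2w and overlapped at 12w.

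**Figure D2:**
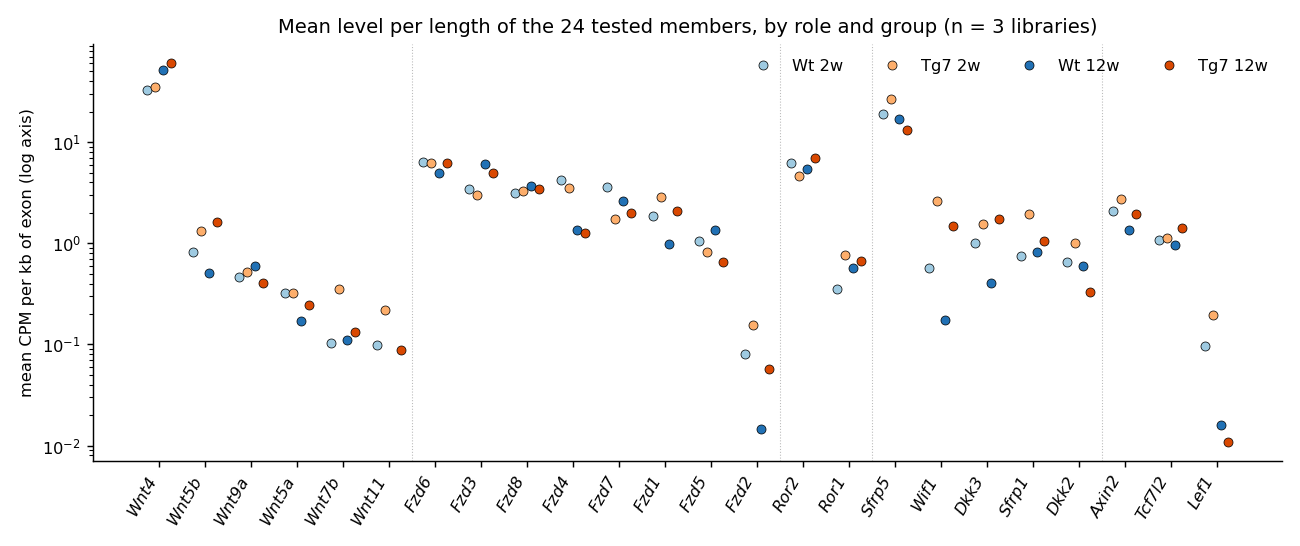
Mean level of the 24 tested members in CPM per kb of exon (log axis), by role and in each of the 4 groups (colours, n = 3 libraries); Wnt11 in Wt 12w is at 0 and not drawn. Wnt4 lies between 32.8 and 60.7 in the 4 groups, whereas every other ligand has a mean of at most 1.61.

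The first comparison asked which members differ between Tg7 and Wt islets at 2w, before diabetes. Genes were called at an adjusted p below 0.05 in edgeR's quasi-likelihood test, adjusted by Benjamini-Hochberg over the 15961 genes tested. At 2w, 2 members were higher in Tg7 (8.3% of 24, against 6.07% of all tested genes) and 1 was lower (4.2%, against 4.55%). The higher members were the antagonists Wif1 and Sfrp1, and the lower one was the receptor Fzd7. The median log2 fold change was 0.47 over the tested members and 0.03 over all tested genes. All 3 Tg7 libraries lay above all Wt libraries in 7 members (29.2%, against 17.8% of all tested genes) and below them in 2 (8.3%, against 18.1%).

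Wif1 (ENSMUSG00000020218, chr10:120471016-120537706) encodes a secreted protein that binds Wnts. Its values were 1.13, 1.62 and 1.44 CPM in Wt 2w and 6.19, 2.40 and 10.5 in Tg7 2w. Every Tg7 library was above every Wt library, and the Tg7 libraries themselves were widely spread. Its log2 fold change was 2.19 ± 0.48 (SE), a 4.57-fold difference (edgeR adjusted p = 0.0101). The call was lost without Wt 2w replicate 1 (adjusted p = 0.0538), Wt 2w replicate 3 (0.0503) or Tg7 2w replicate 3 (0.0515).

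Sfrp1 (ENSMUSG00000031548, chr8:24521974-24560104) encodes a soluble protein with a Frizzled-like Wnt-binding domain. It had 2.31, 4.27 and 3.25 CPM in Wt 2w and 4.91, 8.83 and 11.6 in Tg7 2w, without overlap. The log2 fold change was 1.37 ± 0.38, or 2.59-fold (edgeR adjusted p = 0.0339). This call was lost without any 1 of 6 libraries, Wt 2w replicates 1 and 3, Tg7 2w replicates 2 and 3 and Tg7 12w replicates 1 and 2, with adjusted p values of 0.0518 to 0.144.

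Fzd7 (ENSMUSG00000041075, chr1:59538991-59543791), a receptor of both pathway branches, had 18.3, 16.9 and 16.3 CPM in Wt 2w and 9.12, 7.86 and 7.90 in Tg7 2w. The lowest Wt library was well above the highest Tg7 library. The log2 fold change was -1.05 ± 0.19 (edgeR adjusted p = 0.00314), and Fzd7 was called in all 19 alternative settings run. At 12w it had 11.7, 10.0 and 16.3 CPM in Wt and 10.0, 9.41 and 8.98 in Tg7, with a log2 fold change of -0.43 ± 0.19 that did not pass (adjusted p = 0.122). The change of the Tg7 effect between the ages was 0.62 ± 0.27 for Fzd7 and did not pass (adjusted p = 0.302).

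Some members with Tg7 libraries all above Wt libraries at 2w did not pass the test. Among them were Fzd1 (log2 fold change 0.65 ± 0.24, edgeR adjusted p = 0.103), Ror1 (1.08 ± 0.50, 0.181), Wnt5b (0.69 ± 0.33, 0.2) and Axin2 (0.42 ± 0.27, 0.35). Ror2, with Tg7 libraries all below Wt libraries, did not pass either (-0.44 ± 0.25, 0.274). Wnt7b was likewise higher in each Tg7 library, with 7, 5 and 11 counts in Wt 2w and 64, 11 and 12 in Tg7 2w. It passed the filter on low counts in all 3 Tg7 2w libraries and 1 of Wt 2w, its difference was carried by Tg7 2w replicate 1, and it did not pass (1.76 ± 0.70, adjusted p = 0.123). The same library had 60 of the 95 Lef1 counts of the Tg7 2w group. The summed level of 10 stellate cell, pericyte and fibroblast markers was 703 CPM in that library and 534 and 570.2 in the other Tg7 2w libraries. For 6 macrophage markers the sum was 96.4 CPM there, of which Lyz2 made 62.9, and 54.8 and 46.8 in the others. The part of such cells in the Wnt7b and Lef1 counts was not tested. The 21 members not called at 2w had log2 fold changes from -0.44 (Ror2) to 1.76 (Wnt7b).

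**Figure D3:**
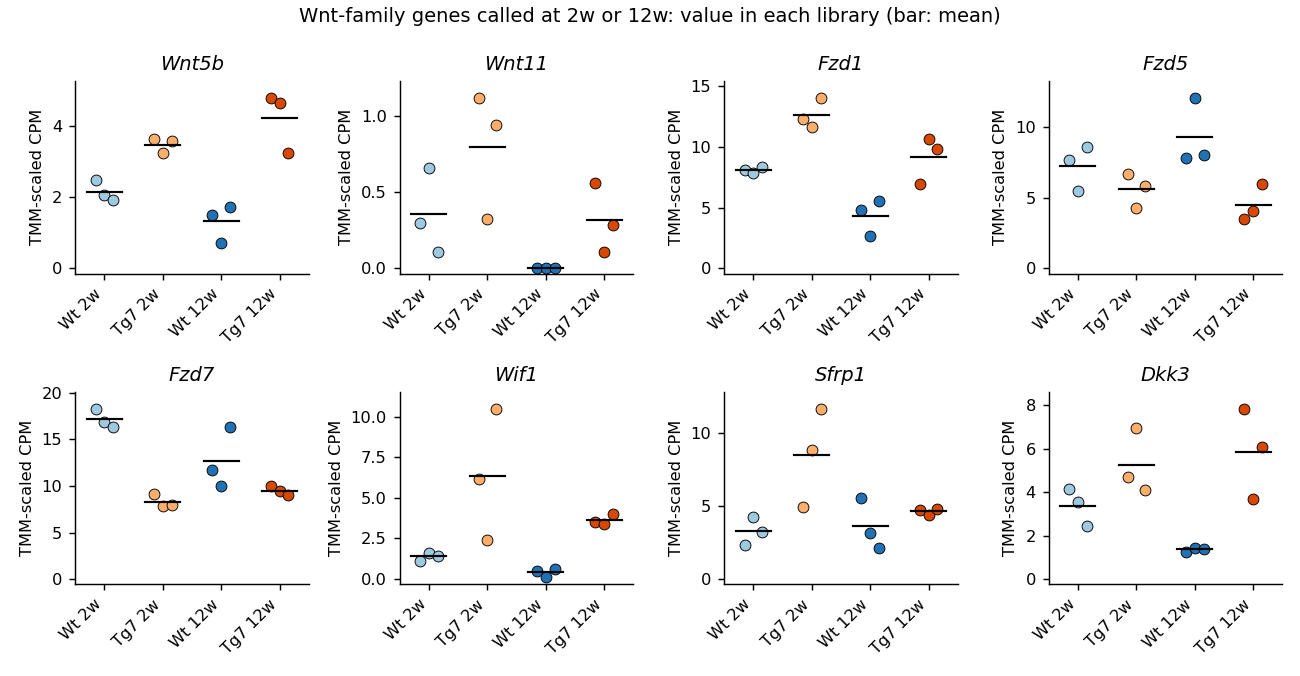
TMM-scaled CPM (y axis) of the 8 members called between Tg7 and Wt at 2w or 12w in each of the 12 libraries. Points are libraries, lines are group means (n = 3); Dkk3 lies between 1.26 and 1.43 in Wt 12w and between 3.71 and 7.84 in Tg7 12w.

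The second comparison addressed the same question at 12w, when Tg7 mice are diabetic. Here 5 members were higher in Tg7 islets (20.8% of 24, against 12.5% of all tested genes) and 1 was lower (4.2%, against 11.2%). The higher members were the ligands Wnt5b and Wnt11, the receptor Fzd1 and the antagonists Wif1 and Dkk3, and the lower one was the receptor Fzd5. The median log2 fold change was 0.32 over the tested members, also with Wnt11 set to its bound, and -0.01 over all tested genes. Tg7 libraries were all above Wt libraries in 6 members (25%, against 20.7%) and all below in 3 (12.5%, against 16.3%). Those below were Fzd5, Wnt9a and Lef1, and Lef1 had only 5 counts in Wt 12w and 5 in Tg7 12w. With library size alone, without TMM factors, the median of all genes moved to 0.43 and the split became 9 members higher and 0 lower. The shares of all tested genes were not taken under that scaling, so this split has no background beside it.

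Among the ligands, Wnt5b (ENSMUSG00000030170, chr6:119382549-119494336), which signals mainly outside the β-catenin branch, had 1.51, 0.714 and 1.73 CPM in Wt 12w and 4.79, 4.65 and 3.26 in Tg7 12w. The lowest Tg7 library was higher than the highest Wt library. This was a log2 fold change of 1.68 ± 0.35, or 3.20-fold (edgeR adjusted p = 0.00385), and the call was made in all 19 alternatives. Wnt5b carries a 7-base seed match, printed above.

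Wnt11 (ENSMUSG00000015957, chr7:105983622-106003705), another ligand of the planar polarity branch, had no count in the 3 Wt 12w libraries and 10, 2 and 5 counts in Tg7 12w. At 2w it had 5, 9 and 2 counts in Wt and 21, 5 and 19 in Tg7. Against a floor of 3 counts over the Wt 12w group, its level in Tg7 12w was at least 3.78-fold higher (edgeR adjusted p = 0.0433). The call was kept in 8 of 17 alternatives, with adjusted p values up to 0.127, and it was lost without any 1 of 8 libraries: Wt 2w replicate 1, Tg7 2w replicates 1 and 3, Wt 12w replicates 1, 2 and 4, Tg7 12w replicates 1 and 3 (adjusted p = 0.0534 to 0.119). Of its exon bases, 10.0% overlap a gene on the opposite strand, Gm8398, and the sources used here do not say whether reads were counted by strand.

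Fzd1 (ENSMUSG00000044674, chr5:4753842-4758216) had 4.79, 2.70 and 5.53 CPM in Wt 12w and 6.94, 10.7 and 9.78 in Tg7 12w. The groups were separated at both ages, with 8.07, 7.81 and 8.30 CPM in Wt 2w and 12.3, 11.6 and 14.0 in Tg7 2w. The 12w log2 fold change was 1.07 ± 0.26, or 2.10-fold (edgeR adjusted p = 0.00855), and it was called in all 19 alternatives.

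Fzd5 (ENSMUSG00000045005, chr1:64777134-64784324) moved the other way. It had 7.81, 12.1 and 8 CPM in Wt 12w and 3.5, 4.09 and 5.95 in Tg7 12w, without overlap, whereas the 2w groups overlapped. A 7-base seed match of this gene is printed above. The log2 fold change was -1.04 ± 0.29 (edgeR adjusted p = 0.0178). It lost its call without Wt 12w replicate 2 (-0.81, adjusted p = 0.0705), Tg7 12w replicate 1 (-0.87, 0.0881) or Tg7 12w replicate 2 (-0.98, 0.0712). With library size alone it was -0.60 (0.141), which is -1.03 relative to the shifted median of all genes.

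Among the antagonists, Wif1 had 0.504, 0.159 and 0.600 CPM in Wt 12w (4, 2 and 9 counts) and 3.5, 3.38 and 4 in Tg7 12w (62, 61 and 70 counts). The Tg7 libraries were close together and far above every Wt library. The difference was 3.09 ± 0.57 on the log2 scale, or 8.49-fold (edgeR adjusted p = 0.00151), and the call was made in all 19 alternatives. Wif1 was thus the member called at both ages in the main fit. Fzd1, called at 12w, passed at 2w in 2 alternatives and not in the other 17. These were each age alone (0.65, edgeR adjusted p = 0.0315) and the fit without Wt 12w replicate 2 (0.64, 0.0482).

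Dkk3 (ENSMUSG00000030772, chr7:119259533-119302571) is a divergent member of the Dkk family and is not known to act like Dkk1 on the Lrp co-receptors. It had 1.26, 1.43 and 1.40 CPM in Wt 12w and 7.84, 3.71 and 6.06 in Tg7 12w. The 3 Wt libraries were nearly alike and the lowest Tg7 library was above all of them. Its log2 fold change was 2.09 ± 0.36, or 4.26-fold (edgeR adjusted p = 9.7e-04), and the call was made in all 19 alternatives. At 2w Dkk3 had 4.15, 3.54 and 2.45 CPM in Wt and 4.70, 6.95 and 4.12 in Tg7, an overlapping difference of 0.64 ± 0.33 (adjusted p = 0.235). Both of the 8-base seed matches shown first above lie in the 3′ UTR of this gene.

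The other antagonists did not pass at 12w. Sfrp1 had 5.55, 3.18 and 2.13 CPM in Wt 12w and 4.74, 4.37 and 4.81 in Tg7 12w (log2 fold change 0.39 ± 0.38, adjusted p = 0.516). Sfrp5, with an 8-base match, stood at -0.36 ± 0.22 (adjusted p = 0.269), and Dkk2 at -0.81 ± 0.48 (0.249). With library size alone the log2 fold change of Sfrp5 changed sign, to 0.08 (edgeR adjusted p = 0.798). Of the nuclear genes, Tcf7l2, a DNA-binding partner of β-catenin, had 9.33, 9.13 and 6.87 CPM in Wt 12w and 9.87, 14.7 and 12.2 in Tg7 12w. Its groups did not overlap, but the difference missed the threshold (0.54 ± 0.21, adjusted p = 0.0728). Axin2 stood at 0.49 ± 0.28 (0.234), and Lef1, another DNA-binding partner, had only 1 or 2 counts in each 12w library. The 18 members not called at 12w ranged from -0.81 (Dkk2) to 1.74 (Fzd2, with 2 counts in Wt 12w and 11 in Tg7 12w, a ratio of 3.67 with an exact 95% counting interval of 0.80 to 34).

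**Figure D4:**
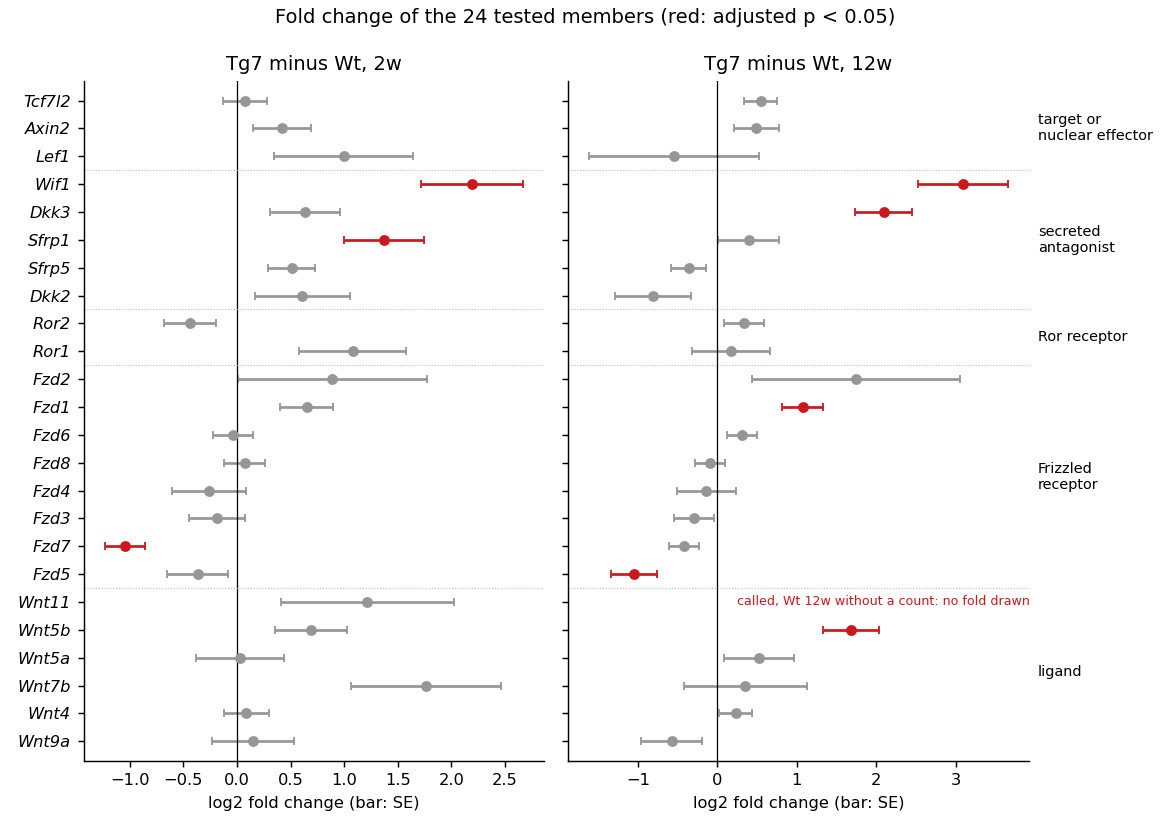
Log2 fold change of Tg7 minus Wt (x axis, with SE) for the 24 tested members at 2w and 12w, grouped by role. Red points passed an adjusted p of 0.05 in edgeR: 3 members at 2w, and 6 at 12w including Wnt11, whose fold is not drawn because Wt 12w had no count.

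The results of 4 further members changed when Wt 12w replicate 4 was left out. Fzd4, a receptor prominent in blood vessels, had 2.77, 2.70 and 9.47 CPM in Wt 12w and 4.12, 4.76 and 5.09 in Tg7 12w, so the Tg7 libraries fell between the low pair of Wt libraries and the high one. Its log2 fold change was -0.14 ± 0.37 (edgeR adjusted p = 0.837) and turned to 0.77 (0.0239) without that library. Without it, Axin2 (0.89, edgeR adjusted p = 0.0222), Fzd6 (0.60, 0.0149) and Ror2 (0.69, 0.0323) were also called higher in Tg7. Wnt11 was not called, and the count at 12w rose from 6 to 9 members. The share of all tested genes was not taken for that fit, so this count has no background beside it. With all 12 libraries and library size alone, Axin2 (0.89, edgeR adjusted p = 0.0464) and Fzd6 (0.73, 0.031) were called higher as well. Without Wt 12w replicate 2, Fzd7 was called at 12w in place of Fzd5 and Wnt11.

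**Figure D5:**
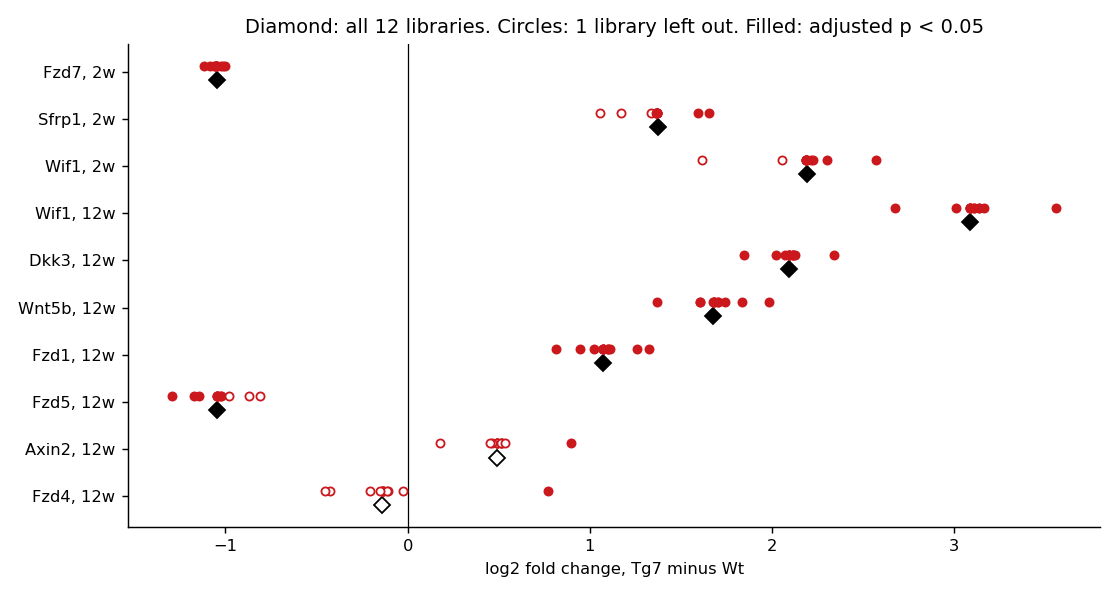
Log2 fold change of Tg7 minus Wt (x axis) for the called members other than Wnt11, and for Axin2 and Fzd4 at 12w, with all 12 libraries (diamonds) and with each library left out in turn (circles). Filled symbols passed an adjusted p of 0.05; the Fzd4 point at 0.77 and the Axin2 point at 0.89 are those without Wt 12w replicate 4.

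Some marker lists of islet cell types also differed between the genotypes. At 12w, 9 of the 10 stellate cell, pericyte and fibroblast markers were higher in Tg7, and their summed level was 89.7 to 153 CPM in the Wt 12w libraries and 393 to 418 in Tg7 12w. All 6 endothelial markers were also higher at 12w, with sums of 341 to 462 CPM in Wt and 725 to 780 in Tg7. At 2w, 6 of the 10 stellate and fibroblast markers were higher (354 to 497 CPM in Wt, 534 to 703 in Tg7) and none of the 6 endothelial markers was called. Every marker of both lists had counts in each library. Of the 9 β-cell markers, 8 were lower at 2w and 7 at 12w. No α-cell (5), δ-cell (3) or tested acinar (5) marker was called at either age. Of the remaining lists, 1 PP-cell and 1 macrophage marker were higher at 2w, 2 Schwann and 2 ductal markers were higher and 1 macrophage marker lower at 12w, and the 1 tested mesothelial marker was lower at both ages. The part of these shifts in the values of Wif1, Dkk3, Wnt5b, Fzd1, Sfrp1, Fzd5 and Fzd7 was not tested, and in bulk RNA fewer cells of a type and less RNA per cell cannot be told apart.

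Among ligands under the filter, Wnt6 showed the clearest pattern, a choice made after its values were seen. It had 0, 1 and 0 counts in Wt 12w and 9, 6 and 8 in Tg7 12w, a ratio of 15.3 with an exact 95% counting interval of 2.49 to 632. Fitted without the filter it did not pass (edgeR adjusted p = 0.151). Wnt7a had no count in Wt 12w and 7, 0 and 2 in Tg7 12w. It had 1, 0 and 2 counts in Wt 2w and 17, 0 and 11 in Tg7 2w. With 1 Tg7 library at 0 at each age, its groups overlapped.

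The third comparison followed the members with age. In Wt islets from 2w to 12w, 2 members rose (8.3%, against 7.9% of all tested genes) and 3 fell (12.5%, against 7.91%). Fzd4 fell from 15.5 ± 2.14 to 4.98 ± 3.89 CPM (log2 fold change -1.59 ± 0.37, edgeR adjusted p = 0.00978). Dkk3 fell from 3.38 ± 0.864 to 1.36 ± 0.0901 CPM (-1.29 ± 0.36, 0.0275) and Fzd1 from 8.06 ± 0.246 to 4.34 ± 1.47 CPM (-0.89 ± 0.26, 0.0314). Fzd3 rose from 14.4 ± 1.51 to 25.6 ± 10.6 CPM (0.84 ± 0.26, 0.0423) and Wnt4 from 138 ± 30.3 to 217 ± 32.5 CPM (0.66 ± 0.21, 0.049).

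Fzd4 was called in all 18 alternatives for this contrast. Each of the other calls was lost without certain single libraries. Dkk3 was lost without any 1 of Wt 2w replicates 1 and 2 and Wt 12w replicates 1 and 2 (adjusted p = 0.0538 to 0.0899), and Fzd1 without any 1 Wt 2w library and without Wt 12w replicate 1 or 2 (0.0523 to 0.0957). Fzd3 was lost without any 1 of 8 libraries, the 3 of Wt 2w, the 3 of Tg7 12w, Tg7 2w replicate 2 and Wt 12w replicate 4 (0.0517 to 0.152). Wnt4 was lost without any 1 of 8 libraries as well, Wt 2w replicates 2 and 3, Tg7 2w replicate 3, Wt 12w replicates 2 and 4 and the 3 of Tg7 12w (0.0614 to 0.209). With library size alone, which moved the median of all genes to -0.35, the split was 0 higher and 10 lower, and with upper-quartile factors it was 1 higher and 3 lower. Shares of all tested genes were not taken for either setting. In the same comparison all 6 endothelial markers and 7 of the 10 stellate and fibroblast markers fell, and their part in these values was not tested.

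In Tg7 islets, 1 member rose with age (4.2%, against 7.02% of all tested genes) and 4 fell (16.7%, against 6.01%). Lef1 fell from 1.68 ± 1.42 to 0.0935 ± 0.0315 CPM, from 60, 6 and 29 counts to 2, 2 and 1 (log2 fold change -4.06 ± 0.82, edgeR adjusted p = 0.00512). It passed the filter on low counts only through libraries at 2w, the age at which it was high. Its entry among the 4 was therefore not independent of its fall, although it was also called with no filter. Sfrp5 fell from 51.3 ± 12.2 to 25 ± 3.04 CPM (-1.03 ± 0.22, 0.00698), Fzd4 from 12.9 ± 0.897 to 4.66 ± 0.496 CPM (-1.47 ± 0.36, 0.0155) and Dkk2 from 3.71 ± 2.27 to 1.22 ± 0.341 CPM (-1.60 ± 0.46, 0.0343). Wnt4 rose from 146 ± 40.7 to 255 ± 42.4 CPM (0.80 ± 0.21, 0.0222). With library size alone the split was 0 higher and 4 lower, again without a share of all tested genes beside it.

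Sfrp5 was called in all 18 alternatives for this contrast and Lef1 in all 17 in which it was tested. Fzd4 was lost without Tg7 12w replicate 1 (adjusted p = 0.069) or 2 (0.0592). Dkk2 was lost without any 1 of 6 libraries, Wt 2w replicates 2 and 3, Tg7 2w replicate 3 and the 3 of Tg7 12w (0.0504 to 0.196). Wnt4 was lost without any 1 of Tg7 2w replicates 1 and 3 and Tg7 12w replicates 2 and 3 (0.0639 to 0.106). With age in Tg7, 6 of the 10 stellate and fibroblast markers and 1 of the 6 endothelial markers fell, and their part in the change of Fzd4, Dkk2 and Lef1 was not tested.

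The 12w comparison and the age comparison in Wt share the Wt 12w libraries, so their values are given side by side only. For Dkk3 the age difference was -1.29 in Wt and 0.16 ± 0.32 in Tg7, and for Fzd1 it was -0.89 in Wt and -0.47 ± 0.24 in Tg7. For Wif1 it was -1.71 ± 0.59 in Wt (edgeR adjusted p = 0.0643) and -0.82 ± 0.44 in Tg7 (0.256). A direct test of the difference in Tg7 effect between 2w and 12w was also made, and edgeR called 0 of the 24 members, against 1.18% of all tested genes. An unadjusted p below 0.05 was seen for 5 members in this test (20.8%, against 14.5% of all tested genes), and DESeq2 likewise called 0. The smallest adjusted p was that of Dkk3, whose Tg7 effect was larger at 12w by 1.46 ± 0.49 on the log2 scale (adjusted p = 0.188). Without Wt 12w replicate 4, 1 member, Ror2, was called.

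The remaining components of the pathway were described from 7 lists with 68 genes, of which 59 were tested. At 2w, 5 were higher (8.5%, against 6.07% of all tested genes) and 4 lower in Tg7 (6.8%, against 4.55%), with a median log2 fold change of -0.03. At 12w, 6 were higher (10.2%, against 12.5%) and 8 lower (13.6%, against 11.2%), with a median of -0.02, so these shares lay near those of all tested genes. None of these numbers counts a member of the gene set above.

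Of the co-receptors, 0 of 4 tested genes were higher and 1 lower at 12w, and none was called at 2w. The lower one was Lrp5, the partner of Frizzled in the β-catenin branch, which stood at 32.8 ± 3.2 CPM in Wt 12w and 21.2 ± 2.7 in Tg7 12w (log2 fold change -0.63 ± 0.18, edgeR adjusted p = 0.022). R-spondins strengthen Wnt signals by holding back Rnf43 and Znrf3, ubiquitin ligases that remove Frizzled from the cell surface. Of 6 tested genes of this list, 2 were higher and 2 lower at 12w, and 1 was higher at 2w. Rspo4 stood at 58.4 ± 13 CPM in Wt 12w and 101 ± 9.1 in Tg7 12w (0.79 ± 0.16, 0.0033), and Rnf43 at 3.07 ± 0.63 and 1.03 ± 0.29 (-1.56 ± 0.43, 0.017). Rspo2, also called, had 0, 0 and 1 counts in Wt 12w and 18, 10 and 34 in Tg7 12w. At 2w the receptor Lgr4 was higher (0.76 ± 0.21, 0.033).

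Of the 18 genes of the β-catenin core, 3 were higher and 2 lower at 2w, and 1 was higher and 2 lower at 12w. Ctnnbip1, which blocks the binding of β-catenin to TCF proteins, stood at 36.7 ± 4.1 CPM in Wt 12w and 15.5 ± 0.72 in Tg7 12w (log2 fold change -1.24 ± 0.16, edgeR adjusted p = 1.0e-04). Apc2, a relative of the scaffold protein Apc, stood at 1.68 ± 0.82 and 9.54 ± 0.69 CPM (2.45 ± 0.37, 3.8e-04). Gsk3b, the kinase that marks β-catenin for destruction, was also lower (-0.60 ± 0.17, 0.019). At 2w, Pygo1, a cofactor of β-catenin, was higher (1.23 ± 0.21, 0.0021), as was Apc2 (1.58 ± 0.36, 0.013).

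Of the 8 tested feedback and target genes, 1 was higher and none lower at 12w, namely Wisp1, a matricellular target gene, at 1.28 ± 0.84 CPM in Wt and 4.53 ± 1.9 in Tg7 (log2 fold change 1.80 ± 0.44, edgeR adjusted p = 0.0096). At 2w, Myc was higher (0.85 ± 0.19, 0.011) and Ccnd1, which encodes cyclin D, was lower (-0.53 ± 0.12, 0.01), both being targets of many other pathways too. Of the 14 planar cell polarity genes, 2 were higher and 2 lower at 12w and 1 was lower at 2w. Celsr1, an atypical cadherin, stood at 8.01 ± 1.2 CPM in Wt 12w and 1.24 ± 0.78 in Tg7 12w (-2.68 ± 0.41, 4.1e-04) and was the gene lower at 2w (-1.33 ± 0.37, 0.037). Prickle2 was higher (0.89 ± 0.17, 0.0016) and the formin Daam1 lower (-0.60 ± 0.18, 0.03) at 12w. Of the 6 tested genes of other extracellular antagonists, only Kremen1, which takes up Dkk-bound Lrp, was called, and it was lower at 12w (-0.54 ± 0.18, 0.045). None of the 3 genes for Wnt secretion was called at either age.

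The promoters of the members were also searched, on both strands, for letters bound by TCF/LEF proteins (CTTTGAA, the related CTTTGAT, and also CTTTGTA and the related CTTTGTT). In RefSeq promoter windows from 250 bases before to 50 after the start, 7 of the 38 windows of members held a match (18.4%), against 16.9% of all 32851 windows. The members with a match were Dkk1, Fzd7, Lef1, Tcf7l2, Wnt11, Wnt3 and Wnt5b, and 31 of the 43 symbols had a window.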

How the data were processed

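The authors deposited raw read counts per Ensembl gene for 12 libraries (NEB Ultra II kit, paired-end reads). According to the methods and the submitters' processing notes, reads were trimmed with Trimmomatic, aligned to NCBIM37/mm9 by TopHat2 2.0.11 and counted by featureCounts. The notes name bcl2fastq 2.20.0 for base calling. The sources used here give neither the strand setting nor the featureCounts version. Groups were taken from the labels. Low genes were removed by filterByExpr (minimum count 10, minimum total 15). TMM-scaled counts were tested in edgeR 4.0.16 (R 4.3.3) by glmQLFit and glmQLFTest, in 1 model of the 4 groups. The contrasts were Tg7 against Wt at 2w and 12w, 12w against 2w in each genotype and the difference of the Tg7 effects, with Benjamini-Hochberg adjustment over 15961 of 37991 genes and a threshold of 0.05. The fitting step was tested on simulated data. Each SE was obtained from the log2 fold change and the F statistic (their ratio after taking the root of F). Totals of 11610697 to 17515758 counts limit precision for members under about 1 CPM, and counting intervals and floors cover counting error only. Symbols and coordinates come from GENCODE vM1, matched for 37205 of 37991 rows. Seed matches were searched in its 3′ UTRs, and miRNA and promoter sequences come from RefSeq (GRCm38.p6).

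The members and lists were chosen with earlier results of these data known. Library values are given for members called between genotypes and for the most abundant member of each role, and group means for members called with age. From each pathway list, at most 3 called genes at 12w and 2 at 2w, those with the smallest adjusted p, are named. Alternatives were DESeq2 1.42.0, upper-quartile factors, library size alone, no filter, a stricter filter (50 counts in 3 libraries), a replicate block, each age alone, and each library left out in turn.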

Additional observations from a re-analysis of the deposited data

How the results depend on the processing

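Of the member results under an alternative setting, 992 kept their side of the threshold, 65 lost their call, 13 gained one with the same sign and 2 gained one with the opposite sign. The last 2 were Fzd4 at 12w, at 0.78 with a replicate block and 0.77 without Wt 12w replicate 4, against -0.14; the other left-out libraries gave -0.45 to -0.03 and library size alone 0.25. The 39 differences between genotypes that were not called had the opposite sign in 30 of 725 settings, spread over 14 differences, most often Fzd6 at 2w (5) and Fzd8 at 12w (4). The counts of called members were 10 in place of 5 for age in Wt with library size alone, and 3 in place of 5 for age in Tg7 with the stricter filter, which tests fewer members. Leaving out each library in turn gave 1 to 4 members in place of 3 at 2w, 4 to 9 in place of 6 at 12w, 1 to 7 in place of 5 for age in Wt, 2 to 7 in place of 5 for age in Tg7, and 0 to 1 in place of 0 for the difference of the Tg7 effect. At 2w the count fell to 1 without Wt 2w replicate 1 or 3 or Tg7 2w replicate 3. For age in Wt it was 1 to 3 without any 1 library of Wt 2w or of Tg7 12w, or without Wt 12w replicate 1 or 2. For age in Tg7 it was 2 or 3 without Tg7 2w replicate 3 or any 1 library of Tg7 12w, and for the difference it was 1 without Wt 12w replicate 4. In all other settings the counts stayed within 1.5 times those reported. The causes of these differences were not tested. Shares of all tested genes were taken for the main fit only, so no count under an alternative has a background share beside it.

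The labels do not say that the replicate numbers pair libraries. Same-numbered Wt and Tg7 residuals correlated at -0.0214, -0.167 and -0.0343 at 2w and at -0.0894 and -0.0112 at 12w. Differently numbered pairs were not compared, so these values cannot decide whether same-numbered libraries were paired. A fit with the replicate block called 3 members at 2w, 9 at 12w, 6 for age in Wt (0 higher and 6 lower, losing Fzd3 at 0.39, adjusted p = 0.208, and Wnt4 at 0.51, 0.0792), 7 for age in Tg7 and 0 for the difference. As Wt 12w replicate 4 is the one library with that number, the block takes it out of the contrasts. Members with few counts in all, such as Fzd2 (58), Wnt6, Wnt7a and Fzd9, could not be compared with any precision at this depth. Where 1 library is left out, the rest of its group is assumed to vary like the other groups.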
